A study of Mus musculus with 2 samples.

Results

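The 6 genes described here carry lipid out of cells and through the extracellular space: the apolipoproteins Apoe and Clu, the enzyme Lcat, the transporters Abca1 and Abcg1, and the receptor Lrp1. They were taken by name from the 15364 genes of the deposited table of kept cells, and all 6 have a row there. The names were chosen with earlier results of the same cells known, and their differences in level between the 4 cultures are among the values they were selected on. Those differences are therefore given as descriptions without a test.

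Apolipoprotein E is the main lipid carrier secreted by astrocytes in the brain, and clusterin, the product of Clu, is another secreted apolipoprotein that also acts as a chaperone. Abca1 hands cholesterol and phospholipid to lipid-poor apolipoproteins, Abcg1 adds sterol to particles already formed, and Lcat, lecithin-cholesterol acyltransferase, esterifies the cholesterol on them. Lrp1 is a large endocytic receptor that takes up particles bearing apolipoprotein E. Apoe, Abca1 and Abcg1 are known targets of the liver X receptors, nuclear receptors activated by oxysterols.

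The cells were hippocampal neural stem cells of male mice, strain C57BL6/J and 6 weeks of age, grown in serum-free medium and sorted singly into 2 plates of 384 wells, 1 culture per condition. Quiescent cells had spent at least 3 days in medium with 20 ng/mL FGF-2, without EGF and with 50 ng/mL BMP-4. Cells in exit from quiescence had been returned for 24 h or 48 h to the medium of activated cells with 0.5 µg/mL noggin, an antagonist of BMP-4. Activated cells had grown in medium with 20 ng/mL each of FGF-2 and EGF. All 4 cultures were cultured cells outside the animal and all received FGF-2, and how many animals gave them is not given in the sources used here. The design text gives 47 cells per condition with equal numbers from 4 gates of punctate autofluorescence, while the deposited table of single cells holds 174 quiescent cells, 151 cells at 24 h, 151 cells at 48 h and 164 activated cells, with 32 to 46 in each gate.

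Transcripts were counted by SORT-seq, in which the mRNA of every well receives its own barcode and molecular identifiers, and levels are given as CPM, the counts of a gene summed over the cells of a culture per 1000000 counts of that culture. The sums held 4815934 counts in quiescent cells, 3046628 at 24 h, 4125228 at 48 h and 6563487 in activated cells, and 3 counts correspond to 0.457 to 0.985 CPM. Quiescent and 24 h cells shared a plate, and 48 h and activated cells shared the other, so that between cultures of different plates, plate and condition cannot be told apart. The labelled cell type was checked with markers: the summed level of 8 neural stem cell markers was 3719 to 6436 CPM across cultures. The summed level of 8 astrocyte markers was 5102 CPM in quiescent cells, 5700 at 24 h, 1944 at 48 h and 1330 in activated cells. None of the 8 was without counts, and at 24 h their sum was above that of the stem cell markers. No verdict on the label is drawn from these sums. Of 9 microglia markers, 5 were at 0 and the summed level was 0.970 to 1.97 CPM, and 5 endothelial and mural markers summed to at most 0.831 CPM. Oligodendrocyte markers summed to 1.52 to 15.8 CPM and neuron markers to 5.33 to 44.9 CPM.

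The genes lie on different chromosomes of GRCm38. Apoe spans chr7:19696109-19699188, Lcat chr8:105939551-105943382, Abca1 chr4:53030787-53159895 and Lrp1 chr10:127538161-127621148, all on the minus strand. Clu spans chr14:65968483-65981547 and Abcg1 chr17:31057675-31117988, both on the plus strand. The annotated genes Gm16156 and Gm16217 overlap Lcat and Lrp1 on the opposite strand, Gm25447 overlaps Abcg1 on the same strand, and none of the 3 has a row in the table of counts. The promoter windows of the 4 genes that differed most between quiescent and activated cells are shown because these genes were low together in activated cells. Each is the 180 bases before the RefSeq start in GRCm38.p6, read 5′ to 3′ on the minus strand, at chr7:19699189-19699368 for Apoe, chr8:105943403-105943582 for Lcat, chr4:53159896-53160075 for Abca1 and chr10:127621149-127621328 for Lrp1. RefSeq lists 3 starts for Apoe, of which that at the annotated gene start is shown. Capitals mark matches to any of the motifs searched.

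Apoe: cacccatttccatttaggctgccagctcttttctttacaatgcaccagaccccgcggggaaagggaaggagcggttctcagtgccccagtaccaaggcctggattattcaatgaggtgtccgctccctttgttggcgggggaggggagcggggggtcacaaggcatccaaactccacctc

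Lcat: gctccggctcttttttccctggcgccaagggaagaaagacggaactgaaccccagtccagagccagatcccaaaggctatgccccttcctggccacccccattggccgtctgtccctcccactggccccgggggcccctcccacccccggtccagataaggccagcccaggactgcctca

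Abca1: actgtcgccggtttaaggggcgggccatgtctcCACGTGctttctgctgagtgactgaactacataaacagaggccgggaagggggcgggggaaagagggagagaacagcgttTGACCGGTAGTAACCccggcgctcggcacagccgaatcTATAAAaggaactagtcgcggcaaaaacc

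Lrp1: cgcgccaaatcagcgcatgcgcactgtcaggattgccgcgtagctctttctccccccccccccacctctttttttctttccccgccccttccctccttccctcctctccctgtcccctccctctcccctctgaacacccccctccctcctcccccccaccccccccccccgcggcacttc

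The motifs were a direct repeat of GGTNA with 5 free bases between the copies, the single nuclear receptor motif AGGTCA, the E-box CACGTG and the TATA box TATAAA. They were searched on both strands with overlaps allowed. In the repeat the first base of each AGGTCA-type motif was left free. The whole motifs are thus 4 bases apart, the spacing that liver X receptors bind with their partner. Matches were found in the Abca1 window and in none of the other 3 windows. On the opposite strand of the Abca1 window the repeat was read as GGTTACTACCGGTCA, 67 to 53 bases before the start, and CACGTG lay 147 to 142 and TATAAA 29 to 24 bases before it. Of 32851 RefSeq promoter windows of the same length, 0.457% held the repeat, 10.3% AGGTCA, 4.81% the E-box and 8.94% the TATA box.

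Apoe, Lcat, Abca1 and Lrp1 were all much lower in activated cells than in quiescent cells, and Clu was less than 2-fold lower. A gene counted as past 2-fold where the log2 ratio of CPM with 10 added to each side was at least 1 in size. On that rule 4 of the 6 genes were lower in activated cells than in quiescent cells, beside 6.5% of the 11011 genes with at least 20 counts in those cultures, and none was higher, beside 9.12% of them. Of the others, Clu was within 2-fold and Abcg1 had too few counts. Because these contrasts bore on the choice of the genes, the shares of all genes are given for scale alone. Of 8 astrocyte markers, 5 were lower past 2-fold in activated cells than in quiescent cells and none was higher, with a median log2 ratio of -2.45. The other 3 lay within 2-fold, among them Aldh1l1 with a log2 ratio of 0.80. At 24 h against quiescent cells, 2 of the 8 were higher and 2 lower past 2-fold. The part of these markers in the result was not tested.

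Apoe stood at 746 CPM in quiescent cells, 556 at 24 h, 64.8 at 48 h and 10.4 in activated cells. The 4 gates of a culture gave 575 to 859 CPM in quiescent cells, 378 to 740 at 24 h, 29.4 to 101 at 48 h and 6.16 to 18.7 in activated cells. The ranges of quiescent and 24 h cells overlapped, while those of 48 h and activated cells each lay apart from all others. Activated cells held 0.0139 times the level of quiescent cells, with a counting interval of 0.0108 to 0.0176. Here and below, intervals cover counting error of 95% confidence and not the spread between cultures.

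Lcat was at 1269.9 CPM in quiescent cells, 513 at 24 h, 35.4 at 48 h and 9.29 in activated cells. Across gates it ran at 1190.0 to 1461 CPM in quiescent cells, 243 to 732 at 24 h, 11.3 to 58.1 at 48 h and 4.65 to 11.8 in activated cells. Quiescent cells stood above every other gate of the study, and only the ranges of 48 h and activated cells met. The level in activated cells was 0.00732 times that in quiescent cells (0.00559 to 0.00941). Of the 6 genes, Lcat alone was past 2-fold at 24 h against quiescent cells, with a log2 ratio of -1.29 (-1.37 to -1.21), in a comparison where 2.27% of 10462 genes were lower past 2-fold and 1.23% higher. In the low gate alone that ratio was -2.26 and in the high gate alone it was -0.85, under 2-fold.

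Abca1 was at 245 CPM in quiescent cells, 168 at 24 h, 22.8 at 48 h and 1.22 in activated cells, where 8 counts were found in 8 of 164 cells. The gates spanned 197 to 290.4 CPM in quiescent cells, 95.7 to 234 at 24 h, 5.65 to 45.9 at 48 h and 0.56 to 1.56 in activated cells. Quiescent and 24 h cells overlapped and the other cultures did not overlap with them or with each other. Activated cells held 0.00498 times the level of quiescent cells (0.00214 to 0.00984).

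Abcg1 was at 0 in quiescent, 24 h and 48 h cells, and 1 count was found in 1 of 164 activated cells. Taken as 3 counts, the limit that a count of 0 allows was 1.72% of the 174 quiescent cells and 1.99% of the 151 cells at either exit time with a counted transcript, which covers counting error and not transcripts the assay missed. No difference was detectable at this depth.

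Lrp1 took another order, with 88.3 CPM in quiescent cells, 123 at 24 h, 47.8 at 48 h and 8.08 in activated cells. Its gates gave 73.7 to 113 CPM in quiescent cells, 113 to 151 at 24 h, 33.8 to 55.4 at 48 h and 5.6 to 10.47 in activated cells. No 2 cultures overlapped, the closest being the lowest 24 h gate at 113.0 CPM and the highest quiescent gate at 112.55 CPM. In cells thinned to equal depth, as used below, quiescent and 24 h gates did overlap. The mid-high gate at 24 h was then at 89.2 CPM and the low-mid gate of quiescent cells at 123.04 CPM. At 24 h the level was 1.39 times that of quiescent cells (1.21 to 1.61), under 2-fold, and activated cells held 0.0915 times the quiescent level (0.0674 to 0.122).

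Clu was at 26.6 CPM in quiescent cells, 16.1 at 24 h, 24.97 at 48 h and 14.9 in activated cells. The gates ran at 14.3 to 34.1 CPM in quiescent cells, 9.96 to 22.6 at 24 h, 6.997 to 41.9 at 48 h and 4.65 to 22.4 in activated cells. The ranges of all 4 cultures overlapped. Activated cells held 0.562 times the level of quiescent cells (0.427 to 0.737).

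**Figure D1:**
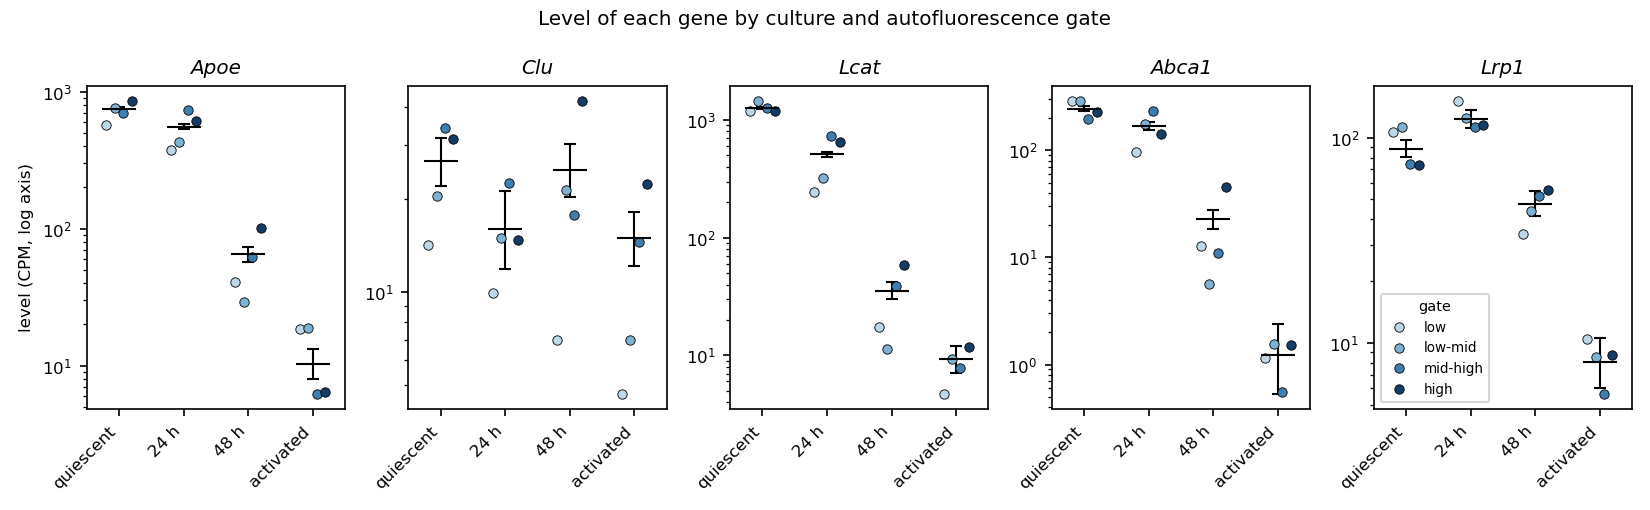
Level of 5 genes in CPM on a log axis, by culture, with points for the 4 autofluorescence gates and the bar and whiskers for the level of the whole culture and its 95% counting interval. Apoe, Lcat and Abca1 are highest in quiescent and lowest in activated cells, Lrp1 is highest at 24 h, and the gates of Clu overlap in all cultures.

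For Apoe, Lcat, Abca1 and Lrp1 the difference between 48 h and 24 h was larger than that between 24 h and quiescent cells. Quiescent and 24 h cells shared a plate, while 48 h and 24 h cells did not. Plate and exit time thus cannot be told apart in the larger difference. At 48 h against 24 h the log2 ratio was -2.92 for Apoe, -3.53 for Lcat, -2.44 for Abca1 and -1.20 for Lrp1, so that 4 genes were lower past 2-fold where 2.62% of 10324 genes were and 4.49% were higher. Clu had a log2 ratio of 0.42 (0.09 to 0.75). On the scale of spiked-in control RNA used further on, Lrp1 at 48 h against 24 h had a log2 ratio of -0.61, under 2-fold. The levels of Apoe, Lcat, Abca1 and Lrp1 at 48 h still lay above those of activated cells. The log2 ratio of 48 h to activated cells was 1.88 for Apoe, 1.68 for Lrp1, 1.55 for Abca1 and 1.23 for Lcat. These 4 were higher past 2-fold beside 1.25% of 10780 genes, with 1.63% lower, on a plate that both cultures shared. Against quiescent cells, 3 genes were lower past 2-fold at 48 h and none higher, beside 4.75% of 10663 genes lower and 4.47% higher, at -4.82 for Lcat, -3.34 for Apoe and -2.96 for Abca1, while Lrp1 was at -0.77 and Clu at -0.07. Lrp1 was past 2-fold in that comparison in thinned cells, at -1.05, and in the low gate alone, at -1.42, which makes 4 genes lower. These comparisons share cultures and are not independent of each other.

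Cells of the 4 cultures differed in their total counts, in another order than these levels. The median total was 25137 counts per quiescent cell, 19270.1 at 24 h, 24947 at 48 h and 35946 in activated cells, and per count of the spiked-in control RNA it was 73.3, 54.2, 81.3 and 118 in the same order. Scaled to 1000 control counts in place of the cell's own total, Apoe gave 57.2 counts in quiescent cells, 30.9 at 24 h, 5.67 at 48 h and 1.23 in activated cells, and Lcat gave 97.3, 28.5, 3.10 and 1.10 in that order. Apoe, Lcat, Abca1 and Lrp1 were lower in activated cells than in quiescent cells on both scales. On the control scale Lrp1 had 6.84 counts at 24 h and 6.77 in quiescent cells, a log2 ratio of 0.01, so that the higher level at 24 h held for CPM and not for the scale of control RNA.

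The share of cells with a transcript was taken after each cell was thinned to 12488 counts, which leaves out 18 quiescent cells, 29 at 24 h, 11 at 48 h and 6 activated cells. Lcat was seen in all of 156 quiescent cells, in 88.5% of cells at 24 h, in 26.4% at 48 h and in 8.86% of activated cells. Apoe was seen in 87.8%, 84.4%, 35.7% and 9.49% of cells in the same order of cultures. The counting interval of the Apoe share, 76.8% to 90.4% at 24 h, overlapped that of 81.6% to 92.5% in quiescent cells.

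Abca1 was seen in 93.6% of quiescent cells, 74.6% at 24 h, 15.0% at 48 h and 0.633% of activated cells. Lrp1 was seen in 63.5%, 72.1%, 38.6% and 10.8% of cells in that order, and the intervals of quiescent and 24 h cells overlapped. Clu was seen in 29.5%, 17.2%, 21.4% and 13.9%, while thinning to 17885 counts gave 24.0%, 23.5%, 34.7% and 18.4%, so that no order of the cultures is read from its shares. Without thinning, Lcat was in 100% of quiescent cells, 93.4% at 24 h, 41.7% at 48 h and 27.4% of activated cells, and Abca1 in 96.6%, 79.5%, 27.8% and 4.88%. All kept cells were of 1 labelled type, so that no cell type lacking these genes gives a background share. In the 69 wells that the table of kept cells leaves out on the plate of activated and 48 h cells, at a median total of 192 counts, 6 wells held Apoe and 5 held Lcat, and the part of RNA from other wells in the low shares was not tested.

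**Figure D2:**
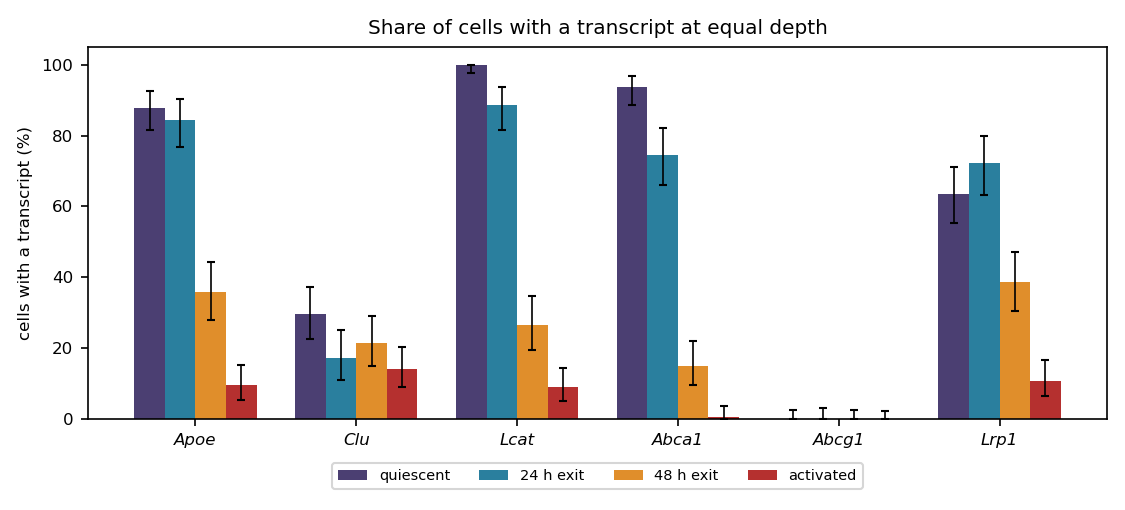
Share of cells with at least 1 transcript of each gene, in percent, after thinning to equal depth, by culture, with exact 95% binomial intervals for counting error. Activated cells are at 8.86% for Lcat and 0.633% for Abca1, against 100% and 93.6% of quiescent cells, and Abcg1 is at 0 in every culture.

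Within a culture the genes differed in how evenly cells held them. At equal depth the variance of Apoe counts over cells was 16.7 times the mean in quiescent cells, 20.8 times at 24 h, 3.01 at 48 h and 1.48 in activated cells, where counting alone gives 1. For Lcat the ratio was 5.46, 7.17, 2.47 and 1.16 in that order, and for Abca1 it was 1.63, 2.81, 1.46 and 1.00. The ratio depends on the mean, which for Apoe was 9.38, 6.99, 0.771 and 0.127 counts per cell in that order. It therefore does not rank cultures or genes by evenness. Among quiescent cells Apoe ran from 38.2 CPM at the 10th percentile of cells through a median of 437 to 1853 CPM at the 90th percentile, and the 17 cells with the most Apoe held 43.2% of its counts. The 17 cells richest in Lcat held 25.8% of Lcat counts, and the 17 richest in Abca1 held 25.8% of its counts. In the other cultures the 15 cells richest in Apoe held 46.3% of its counts at 24 h and 55.5% at 48 h. The 16 richest activated cells held 61.8%. Such shares also rise where counts are few. A median cell at 24 h held 339 CPM of Lcat and 117 CPM of Abca1, against 1103 and 219 CPM in quiescent cells. At 24 h the distribution of Lcat was wide, from 49.7 CPM at the 10th to 1246 CPM at the 90th percentile.

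**Figure D3:**
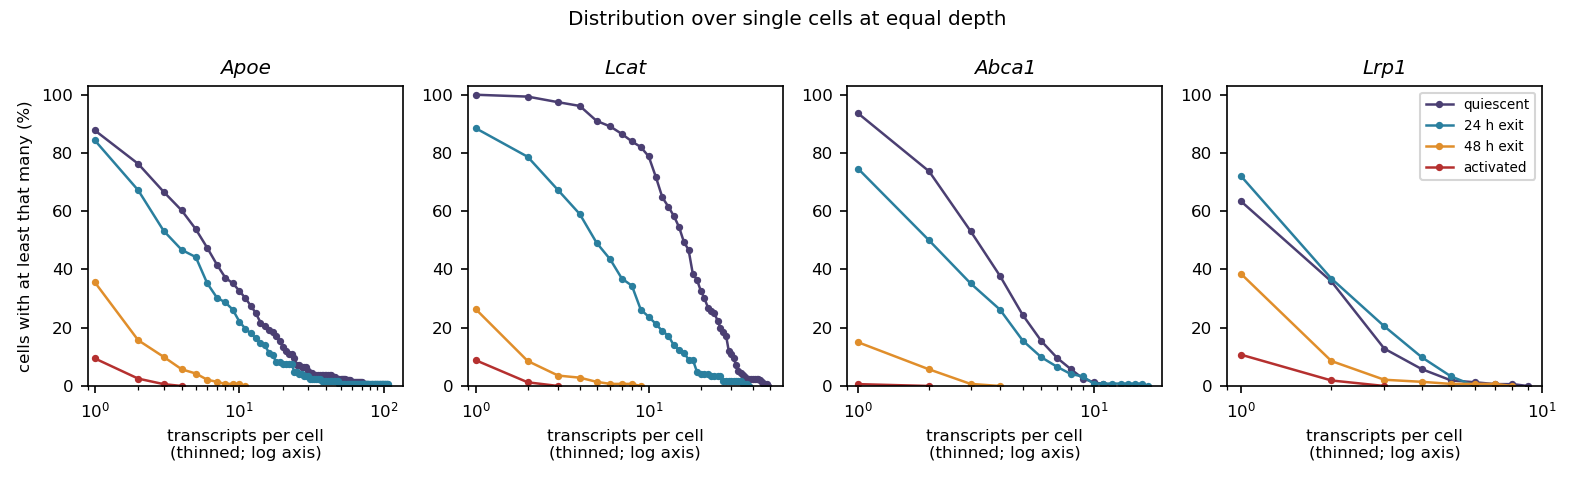
Percent of cells with at least a given count of transcripts, at equal depth, for 4 genes and 4 cultures, on a log axis of counts per cell. The curve of Lcat in quiescent cells stays near 100% over the first counts before it drops, that of Apoe declines from its first point at 87.8%, and activated cells lie lowest in every panel.

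In 54.5% of 156 quiescent cells at equal depth all 4 of Apoe, Lcat, Abca1 and Lrp1 were seen together, as in 45.1% of cells at 24 h, 0.714% at 48 h and none of 158 activated cells. A cell with none of the 4 was not found among quiescent cells, made up 0.82% of cells at 24 h and 30.7% at 48 h, and was the most common kind among activated cells, at 72.2%. Over single cells at equal depth, Lcat and Apoe had a rank correlation of 0.42 at 24 h and 0.11 in quiescent cells, and Lcat and Abca1 had 0.41 at 24 h and 0.14 in quiescent cells. These cells share a plate and a depth, and the values are a description.

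Within the 48 h culture the levels of Lcat, Abca1 and Clu also differed between the authors' clusters and cycle phases. Clusters and phases belong to the same cells and are described without a test. The authors' cluster 1 held 166 of the 174 quiescent cells, cluster 2 held 163 of the 164 activated cells, and cluster 0 held 145 of the 151 cells at 24 h. Over all cells of a cluster Apoe was at 733.5 CPM in cluster 1, 467 in cluster 0, 102 in cluster 3 and 10.4 in cluster 2, and Lcat was at 1315, 405, 69.1 and 9.15 CPM in that order. In cluster 3, of 122 cells, 6 quiescent cells gave 139 and 6 cells at 24 h gave 29 of the 238 counts of Lcat, and they gave 140 and 30 of the 350 counts of Apoe. Of the 48 h cells, 41 lay in cluster 0 and 109 in cluster 3. The 48 h cells of cluster 0 held 73.1 CPM of Lcat and 41.2 of Abca1, against 22.4 CPM of Lcat and 16.5 of Abca1 in those of cluster 3. Apoe was at 81.6 CPM in the 48 h cells of cluster 0 and 59.3 CPM in those of cluster 3, Clu at 39.4 and 20.1 CPM, and Lrp1 at 53.4 and 46.1 CPM in the same order. The 22 cells at 48 h that the authors placed in G0 held 121 CPM of Lcat and 63.5 CPM of Abca1. The 21 cells placed in G1 held 25.9 and 18.5 CPM. The 50 placed in S held 25.5 and 14.6 CPM, and the 58 placed in G2/M held 19.1 and 17.9 CPM. Apoe was at 91.5 CPM in G0, 31.5 in G1, 48.8 in S and 80.1 in G2/M. In that order Clu was at 57.9, 24.1, 23.3 and 16.1 CPM, and Lrp1 at 57.9, 35.2, 49.5 and 47.2 CPM. The counting intervals of Lrp1 overlapped between all phases and, like those of Apoe, between clusters 0 and 3. Those of Clu lay apart between clusters 0 and 3 and between G0 and G2/M, and overlapped between G0 and G1.

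The gates ask whether levels move with punctate autofluorescence within a culture. Clu, Lcat and Apoe were higher in the high gate than in the low gate, and Abca1 and Lrp1 did not pass the test. The test was edgeR's quasi-likelihood test on 16 sums, 1 for each culture and gate, with culture as a block and Benjamini-Hochberg adjustment over all 8702 genes fitted. It called 3 of the 5 genes fitted, all higher, where 4% of all genes were called higher, 2.05% lower and 6.04% in either direction. Abcg1 was not fitted for want of counts, and whether gate values bore on the choice of the genes is not known.

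For Clu the gates from low to high gave 14.3, 20.5, 34.1 and 31.3 CPM in quiescent cells, 9.96, 15.0, 22.6 and 14.8 at 24 h, 6.997, 21.5, 17.8 and 41.9 at 48 h, and 4.65, 7.01, 14.6 and 22.4 in activated cells. The high gate was above the low gate in all 4 cultures. The low gate rested on 12 counts of Clu in quiescent cells, 5 at 24 h, 6 at 48 h and 4 in activated cells. The counting intervals of the high and low gates overlapped in quiescent cells and at 24 h. The log2 difference of the high from the low gate was 1.90 (SE 0.31, adjusted p = 0.00029 by edgeR), the largest of the 5 genes. Among quiescent cells at equal depth, 41.5% of those in the high gate and 16.7% of those in the low gate held a Clu transcript, and among activated cells 21.7% and 6.45% did.

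Lcat gave 1200.4, 1461, 1262 and 1190.0 CPM from the low to the high gate in quiescent cells, 243, 325, 732 and 654 at 24 h, 17.5, 11.3, 38.9 and 58.1 at 48 h, and 4.65, 9.35, 7.84 and 11.8 in activated cells. It was higher in the high gate in 3 of 4 cultures, quiescent cells being the exception, with a log2 difference of 0.97 (SE 0.22, adjusted p = 0.00683 by edgeR). At 48 h Lcat rested on 15 counts in the low gate and 10 in the low-mid gate, and in activated cells on 4 counts in the low gate. Apoe gave 575, 755, 694 and 859 CPM in quiescent cells, 378, 430.3, 740 and 616 at 24 h, 40.8, 29.4, 62.2 and 101 at 48 h, and 18.6, 18.7, 6.16 and 6.45 in activated cells. It too was higher in the high gate in 3 of 4 cultures, activated cells being the exception, with a log2 difference of 0.84 (SE 0.21, adjusted p = 0.0129 by edgeR).

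These calls rested in part on single cultures. Without the 48 h culture Lcat had an adjusted p of 0.0661 and Apoe of 0.158 by edgeR, Lcat had 0.0993 without the 24 h culture and Apoe had 0.0691 without quiescent cells. With DESeq2 the log2 difference of Apoe was 0.57 with an adjusted p of 0.601, and Clu was given no adjusted p. Abca1 had a log2 difference of 0.45 (SE 0.27, adjusted p = 0.393 by edgeR) and Lrp1 of 0.00 (SE 0.17, adjusted p = 0.993 by edgeR).

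**Figure D4:**
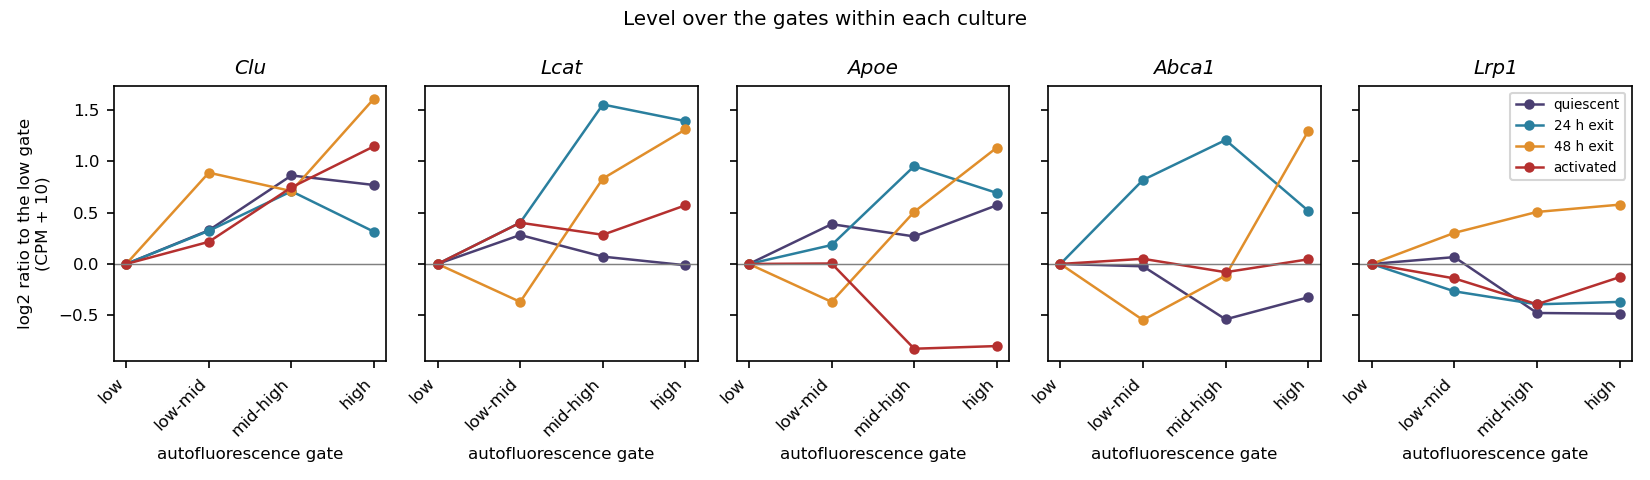
Log2 ratio of the level in each autofluorescence gate to that in the low gate of the same culture, with 10 CPM added, for 5 genes. Each line is 1 culture. Clu is above 0 in the high gate of all 4 cultures, Apoe in activated cells lies below 0 and in the other 3 cultures above it, and Lcat in quiescent cells stays near 0.

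The gate slopes of Lcat and Apoe differed between cultures in a test of the difference of slopes, which was added after the data were seen. Gates were not matched in intensity between cultures. Median autofluorescence of the low and high gates was 3305 and 8977 in quiescent cells and 3448 and 9920 at 24 h. It was 3198 and 10253 at 48 h and 2477 and 7259 in activated cells. Per step from 1 gate to the next, Lcat changed by 0.06 on the log2 scale in quiescent cells, 0.57 at 24 h, 0.80 at 48 h and 0.35 in activated cells (adjusted p of the difference = 0.0078 by edgeR). Apoe changed by 0.25, 0.33, 0.62 and -0.59 in the same order (adjusted p = 0.0181 by edgeR). Of the 5 genes 2 were called, where 0.988% of 8702 genes were. The slopes of Abca1 were -0.06, 0.19, 0.98 and 0.09 (adjusted p = 0.0614 by edgeR), those of Clu 0.46, 0.21, 0.77 and 0.79 (adjusted p = 0.594 by edgeR) and those of Lrp1 -0.13, -0.09, 0.29 and -0.05 (adjusted p = 0.248 by edgeR).

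Depth, mitochondrial share and cycle phase moved with the gates. High-gate cells held a median of 40452 counts against 18910 in low-gate cells of the quiescent culture, and 55395 against 25566 in activated cells. At 48 h, 32.5% of high-gate cells and 0% of low-gate cells were placed in G0 by the authors. With each culture limited to its main phases (G0 in quiescent and 24 h cells, the other phases in 48 h and activated cells), a setting added after the data were seen, the same 3 genes were called, with log2 differences of 1.59 for Clu, 0.76 for Lcat and 0.72 for Apoe. The mitochondrial share of counts was 7.98% in the high gate and 5.83% in the low gate of quiescent cells, 8.52% and 7.92% at 24 h, 10.3% and 6.93% at 48 h, and 5.85% and 5.46% in activated cells, and the ribosomal protein share was lower in the high gate of all 4 cultures. The part of depth and of these shares in the gate differences was not tested.

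Other genes of lipoprotein and sterol handling were counted from lists of 55 genes beside the 6. Of these, 37 had at least 20 counts in quiescent and activated cells, 9 were lower and 4 higher past 2-fold in activated cells, beside 6.5% lower and 9.12% higher of all 11011 genes, and the median log2 ratio was -0.51, beside 0.07 over those genes. Among receptors and their regulators, Sorl1, a sorting receptor that binds apolipoprotein E, was at 56.3 CPM in quiescent cells, 23.3 at 24 h, 14.5 at 48 h and 5.18 in activated cells. Mylip, a ubiquitin ligase that is itself a target of liver X receptors, was at 65.4, 5.91, 4.61 and 1.07 CPM in that order. Mylip was thus low by 24 h, when Abca1 and Apoe were within 2-fold of quiescent cells.

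Arl4c, a small GTPase listed with the targets of liver X receptors, ran the other way, at 6.85 CPM in quiescent cells, 17.4 at 24 h, 55.1 at 48 h and 121 in activated cells. On the same list Srebf1, a lipogenic transcription factor, had a log2 ratio of activated to quiescent cells of -0.66, and Smpdl3a, a phosphodiesterase, of -0.94. Of the 7 genes of that list with at least 20 counts, 6 were lower in activated cells, 0 of them past 2-fold. Arl4c alone was higher.

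Of the transporters, Abca5 had a log2 ratio of activated to quiescent cells of -1.56, Abca2 of -1.29, and Scarb1, the scavenger receptor of high-density lipoprotein, of 0.84. Among genes of sterol storage, release and oxidation, Cyp46a1, the cholesterol hydroxylase of brain, had a log2 ratio of -1.85, Npc1, which exports cholesterol from lysosomes, of -1.24, and Stard4, a cytosolic sterol carrier, of 1.16. Lpl, lipoprotein lipase, had a log2 ratio of -0.73. Between gates, 33 of the 55 listed genes were fitted and 0 were called by edgeR, with 7 of the 33 at an unadjusted p under 0.05, beside 19.6% of all 8702 genes, and 0 were called by DESeq2, which gave 10 of them no adjusted p.

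**Figure D5:**
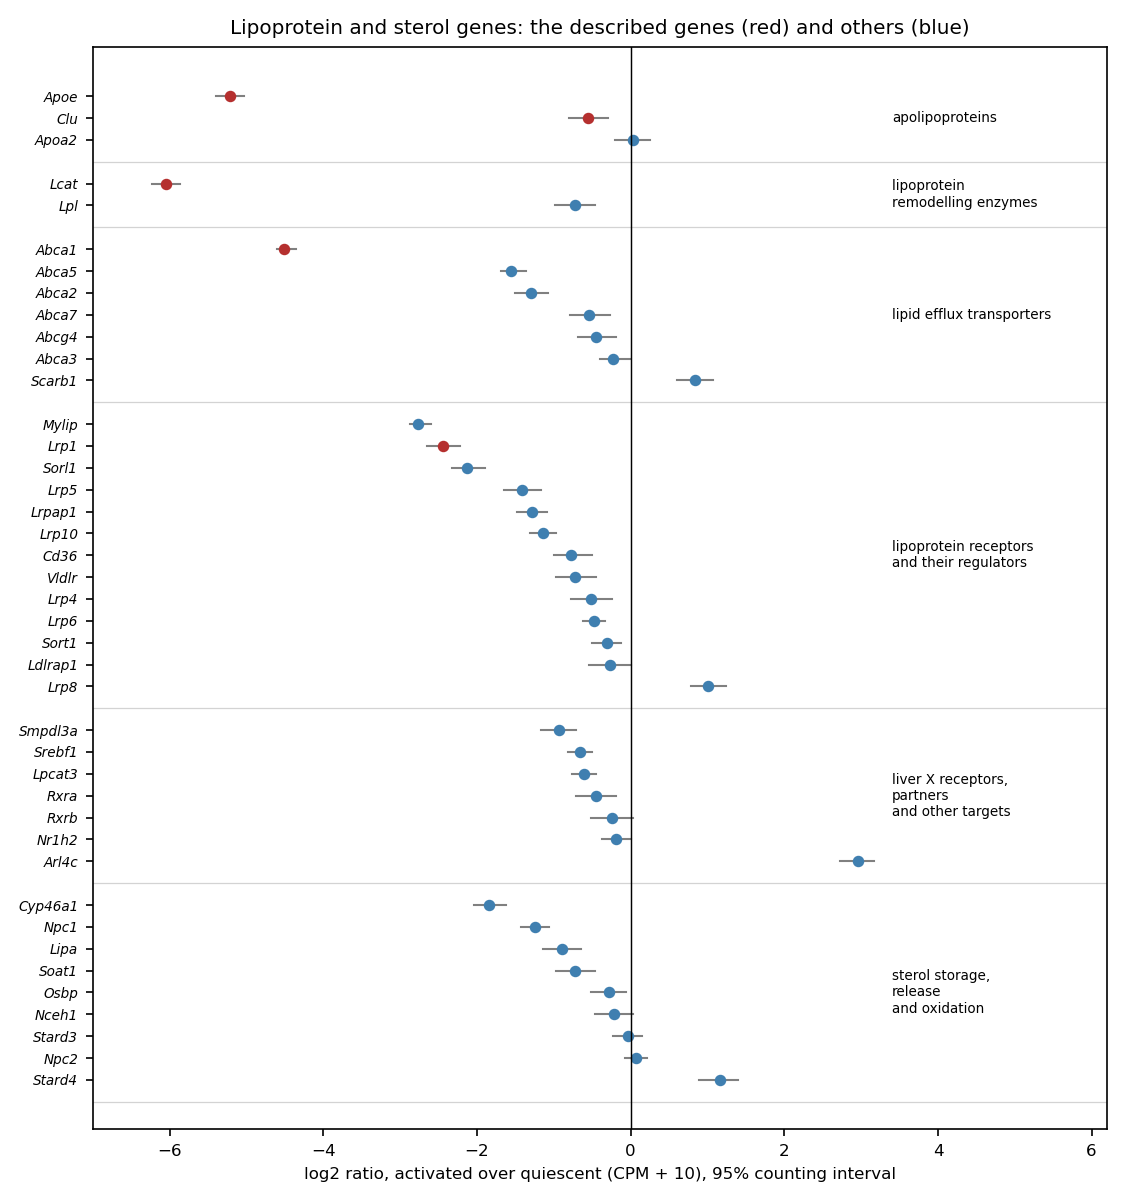
Log2 ratio of activated to quiescent cells, with 10 CPM added and the 95% counting interval as a line, for genes of each list with at least 20 counts. The 6 genes described are red where measured and others are blue. Lcat, Apoe and Abca1 lie farthest to the left at -6.05, -5.21 and -4.51, and Arl4c lies farthest to the right at 2.96.

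The genes most alike in pattern over the 16 sums of culture and gate were found by Pearson correlation of log2 CPM with 10 added, among 9025 genes. The sums share plates and cultures, so the values are a description. For Apoe they included Rcn2 and Sparcl1, each at r = 0.99, and Sparcl1 was at 852 CPM in quiescent cells, 557 at 24 h, 47.3 at 48 h and 2.29 in activated cells. For Lcat they were Cst3, Timp4 and Camk2n1, each at r = 0.99, and for Abca1 they were Sparcl1 at 0.99, Apoe at 0.98 and App at 0.98. For Lrp1 they were Bcan at 0.99, Ctsb at 0.98 and Psap at 0.98, and Bcan, a proteoglycan of brain matrix, was at 910.2 CPM in quiescent cells, 1129 at 24 h, 579 at 48 h and 172 in activated cells, the order of Lrp1. The nearest genes to Clu were less alike, with Chid1 at 0.81, Shisa6 at 0.74 and Cryab at 0.74. Among the genes described, Apoe and Lcat had r = 0.97 and Clu had 0.31 to 0.42 with the other 4 that were measured. The sums hold the culture differences that bore on the choice of the genes, so r among them is no separate result. Over single cells within a culture, Apoe and Lcat had rank correlations of 0.11 in quiescent cells, 0.42 at 24 h, 0.095 at 48 h and -0.028 in activated cells.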

How the data were processed

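Single neural stem cells were sorted by autofluorescence gate and profiled by SORT-seq with CEL-Seq2 libraries, per the labels' protocols. BWA 0.7.15, R 4.2.0 and Seurat 4.1.1 are named, and the builds hg19 and mm10, per the submitters' processing notes. The deposited tables hold expected counts, that is identifier counts corrected for molecules sharing 1 of 4096 identifiers, and undoing the correction returned whole numbers to within 0.0001. Per the file headers, the authors' table of cells gives the percent of mitochondrial and ribosomal protein counts and the intensity of autofluorescence and side scatter, with condition, gate, phase and cluster. How cells were filtered, how phases and clusters were set, and whether counting used strand are not given in the sources used here. No doublet caller was run on the sorted cells, and the deposited notes do not name one. Cells were tied to plates by the library name in the table of cells, and 0 cell names were shared between plates. The 128 wells outside that table were left out of all comparisons.

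Counts were summed per culture and per culture and gate, and log2 ratios of CPM used 10 added CPM. With 1 culture per condition no test between conditions was made. Intervals on levels are exact Poisson, on ratios exact conditional binomial and on shares exact Clopper-Pearson, all 95% and for counting error only. For gates, expected counts were rounded and the quasi-likelihood test of edgeR (version 4.0.16, in R version 4.3.3) was run with TMM factors, the filterByExpr filter and Benjamini-Hochberg adjustment at 0.05, with culture as a block and 9 residual degrees of freedom. The 4 cultures were in 4 different states, so the test seeks a gate difference common to them. DESeq2 1.42.0 was an alternative. Sums, intervals and shares were computed in Python 3.11.15 with pandas 2.3.3 and scipy 1.17.1, and figures were drawn with matplotlib 3.10.9. On simulated data the gate test recovered 30.9%, 85.3% and 100% of genes changed 1.5-, 2- and 4-fold, with 6 false calls among 8576 genes. The simulated gate change of a gene was the same in all cultures, and all genes had the same spread. Simulated intervals between cultures held the true fold for 95.4% of 8556 genes, of which 200 were changed 4-fold. In the data the variance of Apoe counts over quiescent cells was 16.7 times the mean. Intervals for counting error do not cover that spread between cells.

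The genes, lists, tests and most alternatives were chosen with earlier results of these data known. The slope per culture and the restriction to main phases were chosen after seeing the data. The genes named are the 6 genes, the 3 most correlated genes for each, and from each list the 3 others with the largest log2 ratio between activated and quiescent cells among those with at least 100 counts, and 2 of the genes this rule gives are not reported here. Promoter sequences are from RefSeq, GRCm38.p6. Entries for 4 of the 6 genes, without Clu and Abcg1, were used. Gene positions are those of GENCODE on GRCm38.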

Additional observations from a re-analysis of the deposited data

Results flagged for a closer look

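The gate slope of Lcat differed between cultures (adjusted p = 0.0078 by edgeR), and so did that of Apoe (adjusted p = 0.0181 by edgeR), which is why both are listed. With 1 culture per condition, these values rest on the scatter of gates within cultures and not on the spread between cultures. Lcat was near level over the gates in quiescent cells, at 0.06 per step on the log2 scale, and was higher in higher gates in the other 3 cultures. Apoe was lower in the higher gates of activated cells, at -0.59 per step, and higher in those of the other 3 cultures. The levels of Apoe in activated cells rest on 11 to 24 counts per gate.

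Transcripts of these genes were also counted in wells outside the table of kept cells, for which no condition or gate is given, above the limit that a count of 0 allows. On the plate of quiescent and 24 h cells the 59 such wells held 70 counts of Apoe, 92 of Lcat, 27 of Abca1 and 17 of Lrp1, at 513, 674, 198 and 124 CPM in that order. On the plate of activated and 48 h cells the 69 such wells held 15 counts of Apoe, 5 of Clu, 12 of Lcat, 4 of Abca1 and 5 of Lrp1, at 98.3, 32.8, 78.6, 26.2 and 32.8 CPM. The median total of these wells was 641 counts on the plate of quiescent and 24 h cells and 192 on the other, and 0 counts of Abcg1 were found on either.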

How the results depend on the processing

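Between activated and quiescent cells the same count of 4 genes was lower past 2-fold under each alternative run: 1 CPM added in place of 10, totals without mitochondrial and ribosomal protein genes, spiked-in control scaling, whole identifier counts, the mean over cells, thinned cells, the mean over gates, and the low or the high gate alone. At 24 h against quiescent cells, 2 genes (Lcat and Abca1) were lower past 2-fold in the low gate alone and 0 in the high gate alone. At 48 h against quiescent cells 4 genes in place of 3 were lower in thinned cells and in the low gate alone, through Lrp1. At 48 h against 24 h, 3 genes in place of 4 were lower in the high gate alone (Lrp1 at -0.94) and on the spiked-in scale, 1 gene (Clu) was higher in the high gate alone, and at 48 h against activated cells 2 genes (Abca1 and Lrp1) were higher in the low gate alone. The cause of these shifts was not tested, and gates of the same name differed in median autofluorescence between cultures.

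In the gate test the count of genes called was 335 with DESeq2 (1 of the 5 genes, Lcat), 0 with no replicate block (0 of the 5, with 168 genes at an unadjusted p under 0.05), and 290 in the main phases of each culture. DESeq2 gave no adjusted p for 2700 of 8702 genes. Leaving out 1 culture in turn gave 136 to 480 genes, with 1 to 3 of the 5 genes called. The lowest counts came without the 48 h culture (136 genes, 1 of the 5) and without the activated culture (305 genes). The other alternatives run (RLE size factors, no filter, a linear trend, mitochondrial and ribosomal protein genes left out, whole identifier counts) gave 494 to 633 genes and 3 of the 5. Without the block the log2 difference was 0.84 for Apoe, 1.81 for Clu and 0.61 for Lcat, each at an adjusted p of 0.999 by edgeR. The block is the culture, since the labels give no replicate numbers that pair cells across cultures.

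Lrp1, at 0.00 between gates and not called, changed sign to -0.0057 with RLE size factors, -0.014 with a linear trend, -0.086 with no replicate block, -0.0073 with mitochondrial and ribosomal protein genes left out and -0.10 in the main phases, and ran from -0.27 to 0.16 when cultures were left out in turn. Shares of cells depend on depth: at the 25th percentile of totals, 17885 counts, Apoe was seen in 92.9% of cells at 24 h and 45.8% at 48 h, and Abca1 in 84.7% and 22.9%. With 1 culture per condition, the spread between cultures is unknown.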

Other observations

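Side scatter and autofluorescence of single cells, read by the sorter, were set beside the genes at equal depth, as rank correlations that are a description of cells sharing a plate. Lcat had its highest value at 24 h, with 0.42 for autofluorescence and 0.36 for side scatter over 122 cells, and at 48 h it had 0.25 and 0.32 over 140 cells. In quiescent cells the values of Lcat were -0.05 and -0.08 over 156 cells. Lrp1 had -0.19 for autofluorescence and -0.26 for side scatter in quiescent cells, and values between -0.08 and 0.03 in the other 3 cultures. Side scatter itself differed between the gates, with a median of 72405 in the high gate and 29938 in the low gate of quiescent cells, in the sorter's arbitrary units.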
